A study of Mus musculus with 8 samples.

Results

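The genes described here are 8 genes of the mTOR pathway in mouse hippocampus: Mtor, Rptor, Rictor, Tsc1, Tsc2, Akt1, Rheb and Depdc5. Their rows were taken by gene symbol, and the genes were chosen with earlier results of these data known. All 8 were found, on 12 of the 29112 rows that named a gene and among 20258 gene symbols in all. Mtor, Rptor, Rictor, Tsc1 and Rheb each had 1 transcript row, Tsc2 and Akt1 had 2 each, and Depdc5 had 3. The samples were hippocampi of C57BL/6 mice, either control tissue (the label gives the time as zero) or tissue taken 12 h, 10 d or 6 wk after status epilepticus (SE), a prolonged seizure state. Poly(A) RNA was sequenced in 8 libraries, 2 for each of the 4 groups, and cDNA of 2 animals was pooled for each, so no value belongs to a single animal. The sources used here do not give the way in which status epilepticus was induced, what the controls received, or the animals' sex and age.

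mTOR is a serine/threonine kinase that works in a pair of complexes, mTORC1, built around raptor, and mTORC2, built around rictor. Growth factor signals reach mTORC1 through PI3K and AKT, which inhibit the TSC1-TSC2 complex and so leave the small GTPase Rheb free to activate the kinase, while amino acids act through the Rag GTPases, which GATOR1 (with its subunit Depdc5) holds back. Active mTORC1 promotes protein synthesis and restrains autophagy. In people, loss-of-function changes in TSC1, TSC2 and DEPDC5 cause epilepsies, and in the brain the pathway is known for its part in neuronal growth and synaptic plasticity. These statements are background. The libraries measured RNA, and neither the proteins nor their phosphorylation.

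For each transcript and time the authors' deposited table holds a mean signed fold against control, in which a fall is negative, and a mean q-value. Multiplied by 4, 100.0% of folds at 12 h, 10 d and 6 wk were whole millionths within a tolerance of 0.02, which fits means over the 4 pairings of 2 treated and 2 control libraries. With mean q below the threshold of 0.05, a transcript is called higher or lower here if its mean fold reached 1 in size, and mixed if it did not. A rise or fall below is such a call of a mean. It does not show that the pairs agree in sign, and a single pair can set a large mean fold. If 4 pairs were averaged, a mean q under 0.05 allows a single pair to reach a q of 0.2, and a mean q under 0.0125 puts all 4 pairs under 0.05. Such a q-value speaks of the libraries in the pair, the 3 times share their control libraries, and differences between times were not tested. The lowest mean q was 1.21e-15 at 12 h, 8.66e-16 at 10 d and 9.82e-16 at 6 wk. It was shared by 110, 236 and 247 genes, so it does not rank the genes that have it. No library values, read depth, error or n stand behind a fold here, and in bulk tissue fewer cells of a type and less RNA per cell cannot be told apart. Marker genes of cell types were read as folds against control and not as levels, so the labelled tissue was not checked against its markers.

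At 12 h after status epilepticus, little of the core pathway had passed the test: Akt1 fell, Tsc1 was mixed and the other 6 genes did not pass. At 10 d the raptor gene Rptor and the tuberous sclerosis gene Tsc1 fell, with mean folds of -6.08 and -15.3 by the authors' deposited table, and the long transcripts of the GATOR1 gene Depdc5 rose. At 6 wk Mtor, Rictor and Tsc2 rose, with mean folds from 1.25 to 2.09 by the authors' deposited table, and Akt1 fell. Counted by the first row of each gene, 0 rose and 1 fell of 8 at 12 h, 0 and 2 at 10 d, and 3 and 1 at 6 wk. Over all genes with a fold, 10.2% rose and 7.48% fell at 12 h, 7.85% and 11.3% at 10 d, and 9.63% and 12.0% at 6 wk. The counts at 12 h and 10 d are near those shares. Mixed genes made up 4.28%, 3.59% and 3.73% of all genes at the 3 times. At 6 wk 4 of 8 passed as higher or lower, beside 21.6% of all genes (17.6% at 12 h and 19.1% at 10 d), and with 8 genes no more is read from that count. The same table has columns named for 1 h and 6 h, for which the labels give no sample. In the 1 h column 3 of the 8 were higher and 2 lower, beside 11.5% higher, 16.6% lower and 1.17% mixed of all genes (28.1% higher or lower). In the 6 h column 1 was higher and 0 lower, beside 5.39% higher, 9.12% lower and 0.762% mixed (14.5% higher or lower). All 8 had a fold other than 0 at each of the 3 times.

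**Figure D1:**
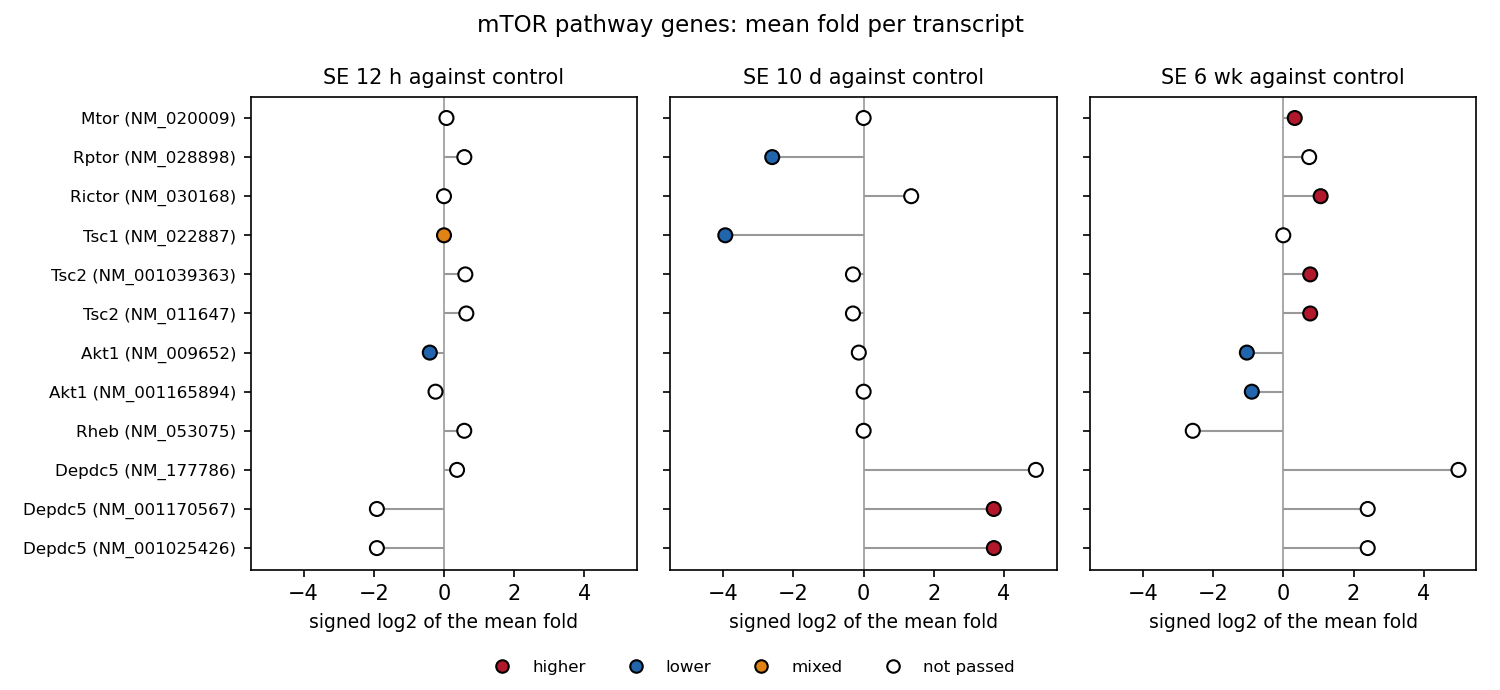
Signed log2 of the authors' mean fold against control (x axis, folds under 1 in size drawn at 0) for the 12 transcripts of the 8 genes (y axis) at 12 h, 10 d and 6 wk; red points were higher, blue lower, orange mixed and white did not pass. Rptor and Tsc1 stand to the left at 10 d (mean folds -6.08 and -15.3), and the 3 Depdc5 transcripts stand to the right at 10 d and 6 wk.

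The gene of the kinase itself, Mtor (NM_020009, chromosome 4, 147822691 to 147931793 on mm9), had mean folds of 1.05 (mean q 0.157) at 12 h, -0.34 (mean q 0.115) at 10 d and 1.25 (mean q 0.0459) at 6 wk by the authors' deposited table. Its rise at 6 wk was the smallest among the 3 rises of that time, lay just under the threshold, and leaves room for a pair of libraries with a q of 0.184. At 6 wk 24.8% of genes with a fold had a lower mean q than Mtor. Angptl7, a secreted angiopoietin-like protein gene on the opposite strand, lies within the Mtor gene (chromosome 4, 147869389 to 147874571 on mm9) and did not pass at any time, with mean folds of -1.45, 0.573 and -4.04 (mean q 0.696, 0.791 and 0.622) by the authors' deposited table.

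Rptor encodes raptor, the scaffold that presents substrates to mTORC1 (NM_028898, chromosome 11, 119464309 to 119760905). Its mean fold was 1.49 at 12 h (mean q 0.0639), -6.08 at 10 d (mean q 0.0278) and 1.67 at 6 wk (mean q 0.233) by the authors' deposited table. The fall at 10 d therefore stood between values above 1 at the other times, neither of which passed, and a single pair behind it could have a q of 0.111.

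Rictor, the defining subunit of mTORC2, the complex that phosphorylates AKT (NM_030168, chromosome 15, 6658381 to 6750400), had mean folds of -0.564 (mean q 0.0799), 2.56 (mean q 0.331) and 2.09 (mean q 0.00233) at 12 h, 10 d and 6 wk by the authors' deposited table. The mean folds at 10 d and 6 wk were of similar size, and the later one alone passed. At a mean q of 0.00233, none of 4 pairs at 6 wk could have had a q above 0.00932.

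Tsc1 encodes hamartin, which stabilises the TSC complex (NM_022887, chromosome 2, 28496763 to 28546687). At 10 d its mean fold was -15.3 with a mean q of 3.71e-07 by the authors' deposited table, the largest fall among the 8 genes at any of the 3 times. At that time 6.22% of genes with a fold had a lower mean fold and 5.79% a lower mean q. At 12 h Tsc1 had a mean fold of -0.0561 with a mean q of 0.00325 by the authors' deposited table, so it passed mean q without a direction. Signed folds are usually at least 1 in size, and a mean that near 0 then needs pairs that differ in sign or in which no fold was given. At 6 wk Tsc1 stood at -0.366 (mean q 0.108) by the authors' deposited table.

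The partner gene Tsc2 encodes tuberin, the GTPase-activating subunit that switches Rheb off (chromosome 17, 24732882 to 24769574). Its 2 transcripts cover the same span and carried nearly the same values. NM_001039363 had mean folds of 1.52 (mean q 0.215), -1.24 (mean q 0.201) and 1.70 (mean q 0.00132) at 12 h, 10 d and 6 wk by the authors' deposited table, and NM_011647 differed from it at 12 h alone, at 1.55 (mean q 0.264). The Tsc2 rise at 6 wk left a single pair at most a q of 0.00528. At 10 d, when Tsc1 fell, Tsc2 did not pass, and the difference between the partners was not tested. The last 578 bases of Tsc2 (chromosome 17, 24732882 to 24733459) overlap the end of Pkd1, a polycystin gene on the opposite strand. The library protocol does not mark strand as far as the labels describe it, so reads from that stretch cannot be told apart. Pkd1 did not pass at any time, with mean folds of 0.135, 1.57 and 0.618 (mean q 0.241, 0.209 and 0.308) by the authors' deposited table.

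Rheb, the GTPase that the TSC complex restrains and the direct activator of mTORC1 (NM_053075, chromosome 5, 24308641 to 24348179), did not pass at any of the 3 times. Its mean folds were 1.49 (mean q 0.246), 0.909 (mean q 0.44) and -5.97 (mean q 0.19) by the authors' deposited table. The value at 6 wk was larger in size than any fold of the same time that passed among the 8 genes, and yet its mean q was far from the threshold.

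Akt1, the kinase that carries PI3K signals to the TSC complex (chromosome 12, 113892032 to 113912487), was lower at 12 h and at 6 wk. NM_009652 had mean folds of -1.32 (mean q 0.0152), -1.10 (mean q 0.0904) and -2.05 (mean q 0.00159) at 12 h, 10 d and 6 wk by the authors' deposited table. The other transcript, NM_001165894, had -1.18 (mean q 0.0891), -0.471 (mean q 0.176) and -1.86 (mean q 1.08e-06) by the authors' deposited table. Both transcripts fell at 6 wk, whereas the call at 12 h rests on NM_009652 and is lost where every transcript has to pass. All 6 mean folds of Akt1 were negative.

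**Figure D2:**
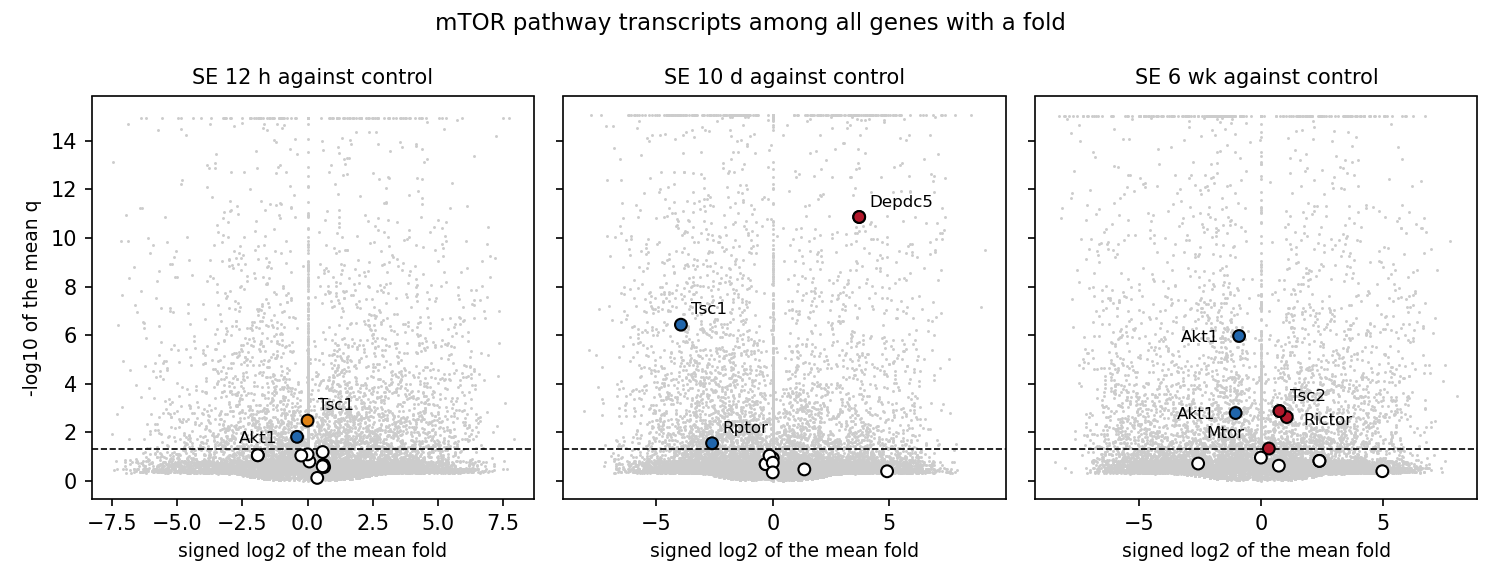
The authors' -log10 mean q (y axis) against the signed log2 of the mean fold (x axis, folds under 1 in size drawn at 0) at 12 h, 10 d and 6 wk, with all genes with a fold as grey points, the 12 transcripts as large points in red (higher), blue (lower), orange (mixed) or white (not passed), and the dashed line at a mean q of 0.05. Depdc5 and Tsc1 stand well above the line at 10 d, and Mtor lies just above it at 6 wk (mean q 0.0459).

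Depdc5, a subunit of the GATOR1 complex that restrains mTORC1 when amino acids are scarce, had the largest mean folds and the clearest difference between transcripts. The table holds a short form, NM_177786 (chromosome 5, 33206370 to 33298949), and the long forms NM_001170567 and NM_001025426, which both run to 33336881. In GENCODE vM1, on the same build, a form ending within a few bases of the short one had 33 exons and 3511 spliced bases, of which 3341 (95.2%) lay in exons of the long form. The matching long form had 43 exons and 8211 bases, of which 40.7% were shared. The GENCODE forms also differ at a few exons near their start and further along, and after an exon of 106 bases they share no further exon. The deposited transcripts all start at the same base, whereas the GENCODE short form begins 0.056 kb after the long one. Its exons may therefore not be exactly those of NM_177786. That exon is shown here in lower case on the plus strand of mm9 with the coding bases that follow it in each form in capitals: 27 bases that end in a stop codon for the short form and the next exon of 66 bases for the long form. They are printed because the coding ends of the forms differ from here on.
Depdc5 short form (chr5:33298502-33298804, intron left out): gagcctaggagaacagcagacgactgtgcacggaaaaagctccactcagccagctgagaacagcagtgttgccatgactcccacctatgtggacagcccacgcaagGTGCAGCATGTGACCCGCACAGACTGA
Depdc5 long form (chr5:33298502-33301995, intron left out): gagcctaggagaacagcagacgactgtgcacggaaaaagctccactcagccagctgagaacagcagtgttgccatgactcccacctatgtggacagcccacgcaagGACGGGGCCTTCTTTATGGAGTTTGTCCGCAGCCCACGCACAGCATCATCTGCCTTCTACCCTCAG

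The short Depdc5 form had mean folds of 1.29 (mean q 0.741), 29.9 (mean q 0.396) and 31.8 (mean q 0.393) at 12 h, 10 d and 6 wk by the authors' deposited table, and passed at none of them. The long form NM_001170567 had -3.76 (mean q 0.0867), 13.04 (mean q 1.38e-11) and 5.29 (mean q 0.148) by the authors' deposited table. NM_001025426 matched it at this precision but for 13.07 at 10 d. The rise of the long forms at 10 d had the lowest mean q of any of the 12 transcripts at the 3 times, while the first row of the gene, the short form, did not pass. At 12 h the short and long forms had mean folds of opposite sign, and neither passed. A large mean fold was often without a pass in this table: of genes whose mean fold reached 20 in size, 37.2% passed at 10 d and 37.8% at 6 wk, beside 19.1% and 21.6% of all genes. The sources used here do not say how the authors assigned reads in shared exons. Most of the short form is shared in GENCODE, so its values are not taken as independent of the long forms.

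**Figure D3:**
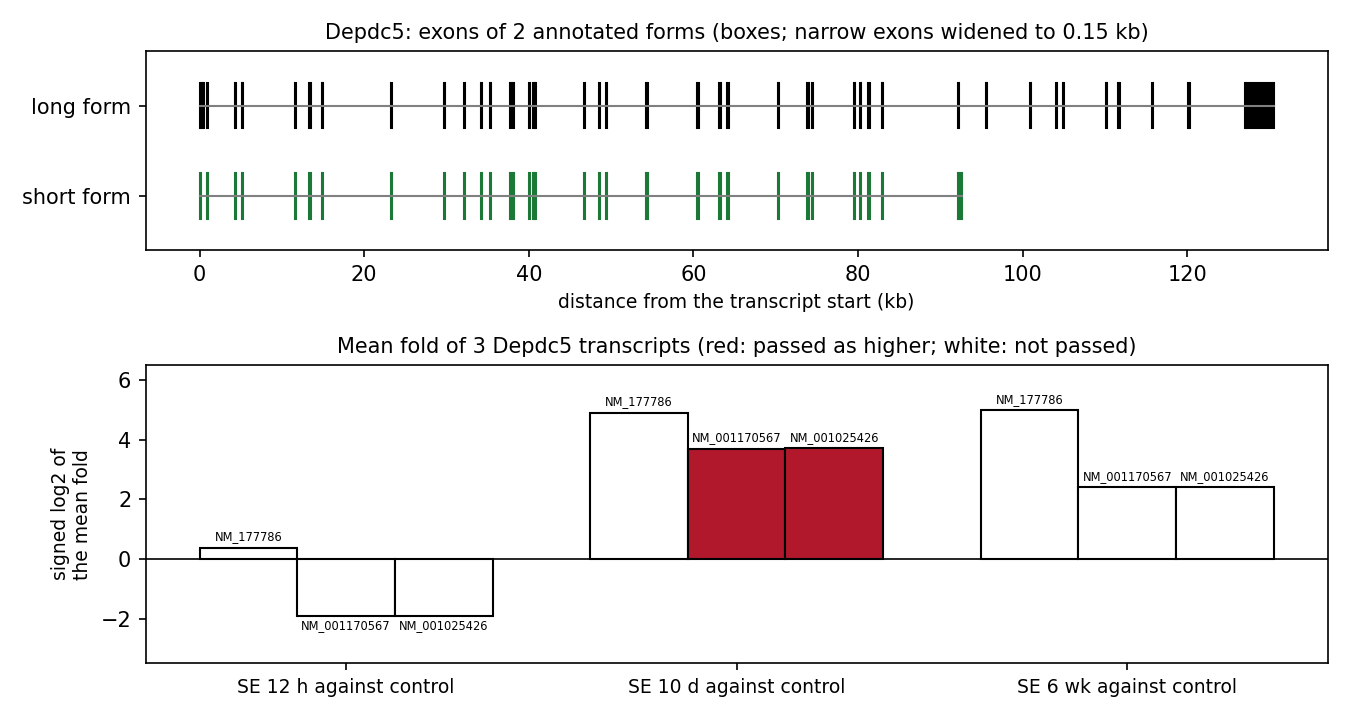
Upper panel: exons (boxes) of the short and the long Depdc5 form in GENCODE vM1 against distance from the transcript start in kb. Lower panel: signed log2 of the authors' mean fold for the 3 deposited Depdc5 transcripts at each time, with red bars for those that passed as higher; the 2 long forms passed at 10 d and the short form, though its bar is taller, did not.

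With folds under 1 in size counted as 0, the 3 genes nearest to Mtor over the 3 times were Kif1a, a kinesin motor gene, Mndal and Spem1. Each lay at a distance of 0.071 on signed log2 folds. Signs could differ under that rule: at 12 h Kif1a and Spem1 had -0.594 and -0.856 where Mtor had 1.05, by the authors' deposited table. That likeness is loose, since 1134 of 15448 genes lay within a distance of 0.5. In the authors' deposited table Kif1a had mean folds of -0.594 (mean q 0.126), -0.169 (mean q 0.006) and 1.26 (mean q 1e-07), while Mndal and Spem1 did not pass at any time.

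A further 87 genes of the pathway were listed by role, of which 86 were found, all with a fold at each time. At 12 h 10 rose and 11 fell (24.4% called, beside 17.6% of all genes), at 10 d 6 rose and 14 fell (23.3%, beside 19.1%), and at 6 wk 14 rose and 14 fell (32.6%, beside 21.6%). Another 6, 7 and 1 were mixed. The median mean fold of the list was -0.0554, -0.599 and 0.797 at 12 h, 10 d and 6 wk, where all genes with a fold had 0.557, 0.689 and -0.737. Each of these medians is under 1 in size, so no direction is read from its sign, and the differences were not tested.

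**Figure D4:**
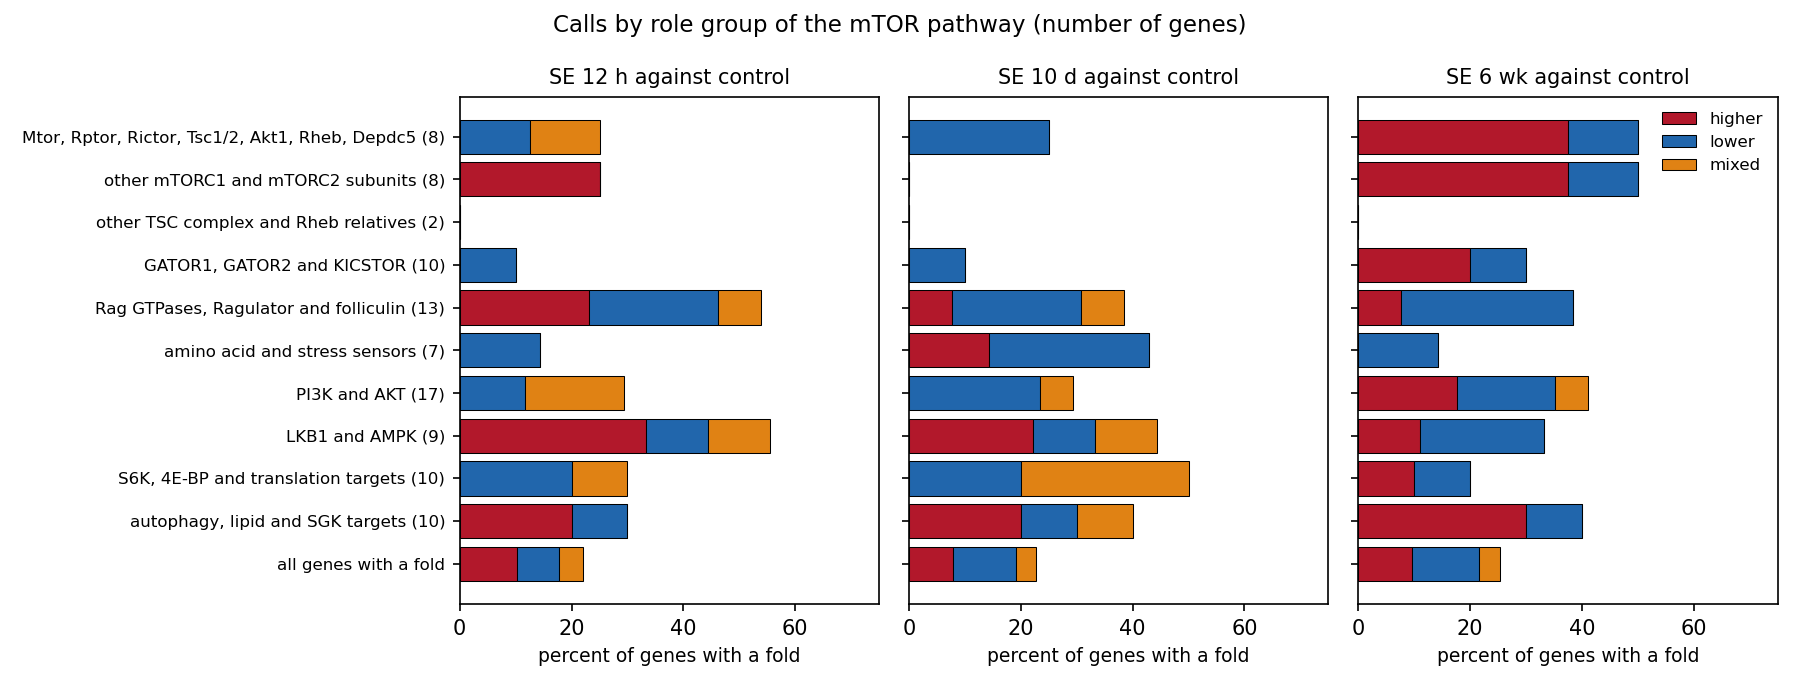
Percent of genes with a fold (x axis) that were higher (red), lower (blue) or mixed (orange) in each role group of the pathway (y axis, number of genes in brackets) and over all genes, at 12 h, 10 d and 6 wk. Rag, Ragulator and folliculin genes show 3 rises and 3 falls of 13 at 12 h, and at 6 wk 1 rise and 4 falls.

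Among 8 other subunits and assembly factors of the mTOR complexes, 2 rose at 12 h, none passed at 10 d, and 3 rose and 1 fell at 6 wk. Mlst8, the subunit common to both complexes, fell at 6 wk with a mean fold of -74.5 (mean q 2.3e-05) by the authors' deposited table, after 1.44 and 0.31 at the earlier times. Deptor, an inhibitor of the kinase listed as Depdc6, rose at 12 h (5.25, mean q 0.000552) and at 6 wk (22.0, mean q 0.00409) and stood at -16.1 (mean q 0.402) at 10 d by the authors' deposited table. Tti1, an assembly factor listed as 2610036D13Rik, rose at 6 wk with a mean fold of 34.6 (mean q 1.8e-07) by the authors' deposited table. Neither Tbc1d7, the third TSC subunit, nor Rhebl1 passed at any time.

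Of 10 genes of GATOR1, GATOR2 and KICSTOR, the complexes around Depdc5, 0 rose and 1 fell at 12 h and again at 10 d, and 2 rose and 1 fell at 6 wk. Nprl2, a GATOR1 partner of Depdc5, fell at 10 d (-56.0, mean q 0.0161) and at 6 wk (-75.9, mean q 0.0282) by the authors' deposited table. At 10 d it thus went the other way from the long Depdc5 forms, a difference that was not tested. Nprl3, the remaining GATOR1 subunit, stood at -48.6, -10.6 and -46.2 without passing (mean q 0.388, 0.396 and 0.345) by the authors' deposited table. In GATOR2, which opposes GATOR1, Wdr59 fell at 12 h (-9.06, mean q 0.00929) and Mios rose at 6 wk (13.1, mean q 6.01e-08) by the authors' deposited table.

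The Rag GTPases, which bring mTORC1 to the lysosome, the Ragulator that anchors them, and folliculin and its partners gave 3 rises and 3 falls of 13 at 12 h, 1 and 3 at 10 d, and 1 and 4 at 6 wk. Rraga, the gene of RagA, had mean folds of -3.20 (mean q 0.00098), -2.30 (mean q 3.66e-05) and -12.1 (mean q 5.13e-10) by the authors' deposited table. Lamtor2, a Ragulator subunit listed as Robld3, had -9.60 (mean q 1.21e-15), -7.73 (mean q 2.48e-12) and -21.0 (mean q 0.000633) by the authors' deposited table. Fnip1, a folliculin partner, stood on the other side with 6.92 (mean q 0.000353), 3.55 (mean q 0.00646) and 6.37 (mean q 4.61e-07) by the authors' deposited table. Each of these genes passed at all 3 times, comparisons that share the same control libraries.

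Amino acid and stress sensors gave 0 rises and 1 fall of 7 at 12 h, 1 and 2 at 10 d, and 0 and 1 at 6 wk. Sesn3, a sestrin that restrains mTORC1, fell at 12 h (-2.67, mean q 0.0396) and at 10 d (-17.0, mean q 1.98e-11) by the authors' deposited table. Its relative Sesn1 rose at 10 d (2.03, mean q 0.00104) and fell at 6 wk (-1.98, mean q 0.0491) by the authors' deposited table. Castor2, which belongs to the CASTOR family of arginine sensors and is listed as Gatsl2, fell at 10 d (-4.99, mean q 0.0325) by the authors' deposited table.

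Upstream, 17 genes of PI3K and AKT signalling gave 0 rises and 2 falls at 12 h, 0 and 4 at 10 d, and 3 and 3 at 6 wk. Pdpk1, the kinase that phosphorylates AKT together with mTORC2, had mean folds of -1.54 (mean q 2.54e-09), -2.21 (mean q 8.66e-16) and -1.73 (mean q 4.41e-07) on NM_011062 by the authors' deposited table. Its second transcript, NM_001080773, stood at 68.4 (mean q 0.00254) at 6 wk by the authors' deposited table, so both passed there in opposite directions. Akt2 did not pass at any time. Pik3r2, a regulatory subunit of PI3K, fell at 10 d (-2.23, mean q 5.29e-08) by the authors' deposited table.

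LKB1 and AMPK genes, through which low energy restrains mTORC1, gave 3 rises and 1 fall of 9 at 12 h, 2 and 1 at 10 d, and 1 and 2 at 6 wk. The subunits of AMPK went different ways. Prkag1, a regulatory gamma subunit, had mean folds of -5.43 (mean q 1.91e-13), -13.3 (mean q 5.32e-05) and -53.6 (mean q 1.2e-06) by the authors' deposited table. Prkab2, a beta subunit, rose at 12 h (18.5, mean q 4.77e-07) and at 6 wk (29.4, mean q 0.00156), and Prkaa2, a catalytic subunit, rose at 12 h (3.99, mean q 0.0137) and at 10 d (2.91, mean q 0.0012) by the authors' deposited table.

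Downstream, the S6K, 4E-BP and translation genes gave 0 rises and 2 falls of 10 at 12 h and again at 10 d, and 1 and 1 at 6 wk. Pdcd4, an inhibitor of translation initiation that S6K marks for degradation, had mean folds of -3.13 (mean q 4.34e-06), -15.3 (mean q 8.66e-16) and -2.71 (mean q 4.9e-08) on NM_011050 by the authors' deposited table, and its other 2 transcripts also fell at each time. Eef2k, the kinase that slows elongation, fell at 10 d (-11.2, mean q 0.00944), and Eef2, the elongation factor it acts on, rose at 6 wk (1.24, mean q 0.00188) by the authors' deposited table. The S6 kinase gene Rps6kb1 and the 4E-BP gene Eif4ebp1 did not pass at any time. Autophagy, lipid and SGK genes gave 2 rises and 1 fall of 10 at 12 h and again at 10 d, and 3 and 1 at 6 wk. Srebf1, a regulator of lipid synthesis that acts downstream of mTORC1, had 8.76 (mean q 1.21e-15), 9.28 (mean q 8.66e-16) and 6.58 (mean q 0.000177) by the authors' deposited table. Of the kinases that start autophagy, Ulk1 fell at 6 wk (-1.52, mean q 1.77e-13) and Ulk2 rose at 12 h (3.45, mean q 0.0231) and 6 wk (2.52, mean q 0.000542) by the authors' deposited table.

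Some markers of several cell types passed at the same times. Over all genes with a fold, 10.2% rose and 7.48% fell at 12 h. The shares were 7.85% and 11.3% at 10 d, and 9.63% and 12.0% at 6 wk. With so few markers per type, nothing is read from a count of 1. At 10 d, when Tsc1 and Rptor fell, 0 of 6 neuronal markers rose and 4 fell (range -8.01 to -0.141), 3 of 6 astrocyte markers rose and 0 fell (-0.205 to 8.47), and 3 of 7 microglial markers rose and 1 fell (-2.66 to 488). At 6 wk, when Mtor, Rictor and Tsc2 rose and Akt1 fell, the counts were 0 and 3 of 6 for neurons (-2.82 to 0.26), 3 and 0 of 6 for astrocytes (-2.11 to 10.5) and 3 and 0 of 7 for microglia (1.15 to 113). At 12 h they were 1 and 1 for neurons (-1.23 to 1.9), 3 and 0 for astrocytes (-2.07 to 4.17) and 1 and 1 for microglia (-3.34 to 20.4). Oligodendrocyte markers gave 0 rises and 2 falls of 6 at 12 h, 2 and 0 at 10 d, and 2 and 1 at 6 wk, and endothelial markers 1 and 0, 2 and 0, and 2 and 1 of 4. Choroid plexus markers gave 2 rises, 1 rise and 0 rises of 4 at 12 h (-0.174 to 179), 10 d (0.779 to 558) and 6 wk (-3.25 to 57.7), with 0 falls at each time. The highest of them was Ttr, the transthyretin gene, at 179 (mean q 1.21e-15), 558 (mean q 3.12e-10) and 57.7 (mean q 0.0529) by the authors' deposited table. The part of these shifts in the values of the 8 genes was not tested.

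The table also lists regions named for the transcription factor CREB, each within 2000 bases of a cluster of small RNA tags, so promoters far from such clusters were not covered. No region of the 3 lists lay within 2000 bases of the start of any of the 8 genes. Tsc2 alone held a region, in each of the 3 lists. In the list with most regions (1235) it ran from 24734313 to 24735629 on chromosome 17, 1432 bases inside the end of the gene and 33945 bases from its start.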

How the data were processed

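Bowtie aligned the reads to mm9, and those with a unique position were tallied over RefSeq exons, per the series' design text. The authors deposited, per the file headers, a mean signed fold (a score with no fixed range, negative for a fall) and a mean q-value for each transcript and time. The sources used here do not give the way in which folds, q-values and library scaling were computed. Another 32 columns of values per sample, for small RNA, were not used.

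The 96 of 29208 rows without a gene symbol were dropped. The first row stood for a gene where genes were counted, and all rows of the 8 genes were read. Folds of 0, taken as no fold, were left out. Start positions were raised by 1, after which 35.1% of transcripts matched a GENCODE vM1 span exactly (2.77% before). Older symbols were used for 11 listed genes. Samtor and Rbfox3 had no row.

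Genes and lists were chosen with earlier results of these data known. Of the wider list, the 3 called genes with the lowest mean q in each role group were named, with some others for their place in the pathway (Nprl3, Tbc1d7, Rhebl1, Akt2, Rps6kb1, Eif4ebp1), chosen after their values were seen. A gene that this rule names is not reported here. No test of a library difference was run, since no mRNA value per library was used, and the depth behind a fold is unknown. Python 3.11.15 with pandas 2.3.3 was used.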

Additional observations from a re-analysis of the deposited data

Results flagged for a closer look

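The authors' deposited table also has columns named for 1 h and 6 h, times for which the labels used here give no sample, so which libraries they compare is not known. In them 6 values of the 8 genes passed, and they are given because they lie in columns outside the comparisons above. In the column named for 1 h of the authors' deposited table, Akt1 stood at 2.30 (mean q 2.98e-15), Depdc5 (short form) at 4.78 (mean q 0.00133) and Mtor at 1.34 (mean q 0.00273), while Rictor stood at -1.66 (mean q 0.000938) and Tsc1 at -1.48 (mean q 0.0104). The long Depdc5 forms did not pass there, at 1.21 (mean q 0.335) and 1.20 (mean q 0.386) by the authors' deposited table, so the short form alone passed, whereas at 10 d the long forms alone did. The difference between forms was not tested. Over all genes with a fold in the 1 h column, 28.1% passed (11.5% higher and 16.6% lower). In the column named for 6 h of the authors' deposited table, Rheb alone of the 8 passed, at 3.76 with a mean q of 3.71e-15, where 14.5% of all genes passed. That mean q is the lowest in its column and was shared by 196 genes. Akt1 thus had a positive mean fold in the 1 h column and negative ones at 12 h, 10 d and 6 wk, a difference that was not tested. Folds in the 1 h column were whole millionths when multiplied by 2 (100.0%), as for means of fewer pairs than at the other times.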

How the results depend on the processing

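With 8 genes, single calls move the counts. At 12 h the count of 1 (Akt1) went to 0 where every transcript had to pass, with mean q under 0.01, with mean q under 0.0125 (chosen after seeing the data) or with a minimum fold of 2, and to 2 with mean q under 0.1 (adding Rptor) or no minimum fold (adding Tsc1). At 10 d the count of 2 went to 1 (Tsc1) with mean q under 0.01 or under 0.0125, and to 3 with the transcript of lowest mean q, which adds Depdc5, or with mean q under 0.1, which adds Akt1. At 6 wk the count of 4 went to 2 (Rictor and Akt1) with a minimum fold of 2, and to 3, without Mtor, with mean q under 0.01 or 0.0125. Depdc5 at 12 h reversed, to -3.76, with the transcript of lowest mean q. Total calls for the wider list and for all genes stayed within 1.5 times of their values under each alternative, but the wider list's rises at 10 d went from 6 to 10 with no minimum fold, and its falls went from 11 to 7 at 12 h and from 14 to 9 at 6 wk with mean q under 0.01. Folds under 1 in size were counted as 0 on the signed log2 scale, and the median of all genes was therefore 0 at each time. Centring on it could change no call and tests nothing. No paired analysis was possible because the mRNA values used here are the authors' averages over pairs of libraries. For the same reason left-out libraries, other scalings and other tests were not run.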

Other observations

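Some pathway genes passed mean q by a wide margin with a mean fold near 0. They were chosen here after their values were seen. Gsk3b, a kinase inhibited by AKT, stood at -0.0591 with a mean q of 7.59e-14 at 6 wk in the authors' deposited table. Eif4g1, the scaffold of the translation initiation complex, stood at 0.554 (mean q 1.21e-15) at 12 h and 0.118 (mean q 7.49e-14) at 10 d in the authors' deposited table. Over all genes with a fold, 4.28%, 3.59% and 3.73% were mixed at 12 h, 10 d and 6 wk. That class is wider, since it takes in any mean q under 0.05 with a mean fold under 1 in size.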
